A study of Mus musculus with 6 samples.

Results

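The genes described here are 40 cell cycle genes, 17 of DNA replication and 23 of mitosis, among the 15238 genes of the deposited count table. They were taken by gene symbol from a list of known cell cycle genes by a rule that uses no measured value, and every one of the 40 was present in the table. The list names examples of each phase, and the remaining genes were placed by textbook function. Bulk RNA-seq was made of intestinal fibroblasts from Balb/c mice at postnatal day 9, in 3 wild-type libraries (replicates 1, 3 and 4) and 3 DdblGata1 libraries (replicates 4, 9 and 10). DdblGata1 animals carry a germline deletion of a pair of GATA sites in the promoter of Gata1, whose product directs blood cell formation, and are described by the labels as lacking eosinophils. Strain, age, organ and sort were the same in both groups, and the labels name no treatment, sex, litter or batch. Epithelium was stripped with EDTA, the remaining tissue was digested, and podoplanin-positive cells without CD45, EpCAM or CD31 (surface proteins of leukocytes, epithelium and endothelium) were sorted. The labels do not say whether each library came from a separate animal or from pooled animals, so the p-values measure the spread between these libraries, which may be technical.

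A dividing cell makes its replication genes as it enters S phase and its mitosis genes as it approaches division. The first set is released by E2F transcription factors once the retinoblastoma family of repressors is phosphorylated by cyclin-dependent kinases. The second set is held down by the DREAM complex in resting cells and switched on by B-MYB and FOXM1, through promoter elements known as the cell cycle genes homology region (CHR) and the CCAAT box that binds NF-Y. In bulk RNA the level of either set depends on the share of cells in that phase and on the RNA per cell, and these cannot be told apart. Fibroblasts of the growing intestine are known to include dividing cells.

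The promoters of the 2 sets held different motifs. Promoter sequences came from RefSeq (build GRCm38.p6), which gave a window of 250 bases before to 50 bases after the start of 27025 genes, including 32 of the 40 genes. Both strands were searched for CHR (TTTGAA or TTCGAA), for CCAAT and for an E2F core. The E2F spellings were TTCCCGC, then TTCGCGC, then TTGCCGC and last TTGGCGC, and a gene counted once if any of its windows held a match. A CHR was present in 14 of 18 mitosis promoters (77.8%) and in 3 of 14 replication promoters (21.4%), against 21.7% of all promoters. An E2F core was present in 9 of 14 replication promoters (64.3%) and in 3 of 18 mitosis promoters (16.7%), against 10.9% of all. CCAAT was common to both, with 16 of 18 (88.9%) in mitosis and 10 of 14 (71.4%) in replication, against 41.1% of all. CHR and CCAAT occurred together in 77.8% of mitosis promoters, 21.4% of replication promoters and 9.65% of all promoters. E2F spellings can overlap on opposite strands, and a match describes the letters and is not a measured binding site.

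The following replication promoters are shown because Rrm2 had the smallest p-value of the 40 genes, Rrm1 encodes its partner subunit, and Mcm5 and Mcm6 are subunits of 1 helicase whose values differed in size. Bases before the start are given 5′ to 3′ on the gene's strand, and capitals mark the motifs searched.
Rrm2 (chr12:24708004-24708253, plus strand): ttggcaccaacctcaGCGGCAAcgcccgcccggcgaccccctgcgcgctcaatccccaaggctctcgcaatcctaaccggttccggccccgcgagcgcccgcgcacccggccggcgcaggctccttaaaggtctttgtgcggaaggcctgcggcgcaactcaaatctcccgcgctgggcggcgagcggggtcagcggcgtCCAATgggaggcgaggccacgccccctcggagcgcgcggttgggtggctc
Rrm1 (chr7:102441525-102441694, plus strand): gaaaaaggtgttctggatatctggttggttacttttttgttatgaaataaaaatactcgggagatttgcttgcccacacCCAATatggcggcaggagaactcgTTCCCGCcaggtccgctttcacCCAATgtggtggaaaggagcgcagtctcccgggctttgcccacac
Mcm5 (chr8:75109339-75109508, plus strand): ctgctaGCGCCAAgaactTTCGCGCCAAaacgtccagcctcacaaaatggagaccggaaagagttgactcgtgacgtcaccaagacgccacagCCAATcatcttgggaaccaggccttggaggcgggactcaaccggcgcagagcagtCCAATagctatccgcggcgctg
Mcm6 (chr1:128359706-128359875, minus strand): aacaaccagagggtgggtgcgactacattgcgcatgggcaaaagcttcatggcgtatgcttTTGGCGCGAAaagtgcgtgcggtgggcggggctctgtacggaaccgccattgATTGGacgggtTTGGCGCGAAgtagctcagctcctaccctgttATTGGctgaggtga
Rrm2 had 1 CCAAT and 1 E2F core, Mcm6 had pairs of overlapping E2F cores on opposite strands, and none of these 4 sequences held a CHR.

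The following mitosis promoters are shown because Cdk1 and Cdc20 separated the groups, Ube2c had the lowest fold change of its set, and Cenpe was among the few mitosis genes with a positive one. Capitals again mark the motifs.
Cdk1 (chr10:69352913-69353082, minus strand): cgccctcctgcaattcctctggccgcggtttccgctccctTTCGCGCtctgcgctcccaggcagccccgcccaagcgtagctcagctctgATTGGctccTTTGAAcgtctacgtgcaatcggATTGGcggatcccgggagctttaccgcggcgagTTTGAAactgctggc
Cdc20 (chr4:118437344-118437513, minus strand): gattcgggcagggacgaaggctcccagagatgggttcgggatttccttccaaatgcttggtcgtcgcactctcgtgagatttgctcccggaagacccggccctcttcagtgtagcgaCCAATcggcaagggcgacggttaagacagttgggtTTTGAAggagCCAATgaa
Ube2c (chr2:164769759-164769928, plus strand): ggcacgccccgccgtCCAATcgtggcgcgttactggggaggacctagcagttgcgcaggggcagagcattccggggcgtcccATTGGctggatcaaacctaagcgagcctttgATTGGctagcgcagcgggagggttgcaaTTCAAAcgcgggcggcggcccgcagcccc
Cenpe (chr3:135212393-135212562, plus strand): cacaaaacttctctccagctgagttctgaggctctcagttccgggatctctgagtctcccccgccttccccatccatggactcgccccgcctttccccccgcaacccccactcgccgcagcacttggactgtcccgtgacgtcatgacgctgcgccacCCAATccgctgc
Cdk1 held a CHR close to its start, as did Cdc20 and Ube2c, and Cenpe held a CCAAT without a CHR.

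The libraries held 28110454 to 31210800 estimated counts in the gene table. For Gata1 only 1 count was estimated in wild-type replicate 1 and 0 in the others, a level that does not check the deletion. Fibroblast markers were all present (9 of 9), and Pdpn, which encodes podoplanin, was at 25.1 to 42.0 CPM (counts scaled to library size with TMM factors) in wild-type and 41.5 to 53.9 CPM in DdblGata1 libraries. Markers of cells that the sort should remove were present at unequal levels. The 12 epithelial markers, all present in the table, summed to 1331 CPM in wild-type replicate 1 and to 228 to 358 CPM in the other 5 libraries. All 12 had a negative fold change with that library included. Their sums were 289 and 228 CPM in wild-type replicates 3 and 4 and 316 to 358 CPM in DdblGata1 libraries. Of 14 leukocyte markers 9 were in the table, summing to 50.3 CPM in wild-type replicate 1 and 20.2 to 26.9 CPM elsewhere, and the other 5 had estimated counts of 0 to 26. Among eosinophil genes Epx was at 0 in every library. Prg2 had estimated counts of 7, 3 and 2 in wild-type and of 0, 26 and 11 in DdblGata1 libraries, and Siglecf had 16, 6 and 5 and then 6, 1 and 7. The 9 endothelial markers summed to 62.0 to 83.5 CPM in wild-type and 112 to 171 CPM in DdblGata1 libraries. Their signs were mixed, with 5 negative and 4 positive fold changes, a median log2 fold change of -0.08 and overlapping mean log2 CPM. Smooth muscle markers, 9 of 9 present, summed to 8800 to 13963 CPM in wild-type and 6092 to 9361 CPM in DdblGata1 libraries. All 9 had a negative fold change, with a median of -0.73 on the log2 scale. In the edgeR test described below, 6 were lower at an unadjusted p below 0.05, against 4.23% of all genes. The 5 markers of interstitial cells of Cajal all had a negative fold change and summed to 481 to 728 CPM in wild-type and 219 to 470 CPM in DdblGata1 libraries, without overlap. Glial markers (8 of 8 present, 7 with a negative fold change) summed to 230 to 511 CPM and 241 to 342 CPM. Enteric neuron markers (8 of 8) summed to 68.2 to 142 CPM and 96.9 to 152 CPM, and mesothelial markers (7 of 7) to 349 to 420 CPM and 294 to 537 CPM, in wild-type and DdblGata1 respectively. The part of these other cells in the results below was not tested.

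No cell cycle gene passed the test after adjustment for all genes, and no gene of the table did. With edgeR's quasi-likelihood test and Benjamini-Hochberg adjustment at 0.05, 0 of 15238 genes were called (0.0%). At an unadjusted p below 0.05 the test gave 1564 genes (10.3% of all), 645 of them lower (4.23%) and 919 higher (6.03%) in DdblGata1. Among the 17 replication genes 1 was lower at that threshold and 0 were higher. Among the 23 mitosis genes 2 were lower and 0 were higher. DESeq2 called 214 of 14630 genes after adjustment (1.46%), of which 1 was a replication gene, Rrm2, and 0 were mitosis genes. The shares at the unadjusted threshold, 1 of 17 and 2 of 23, were near the background.

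Signs leaned to lower values in DdblGata1 in both phases. The log2 fold change, fitted as DdblGata1 minus wild-type, was negative for 15 of 17 replication genes and 18 of 23 mitosis genes, against 50.7% of all genes. Its median was -0.15 over the replication genes and -0.19 over the mitosis genes, against -0.01 over all genes. Members of a phase share their libraries and vary together, so these counts are not independent evidence, and no test was made on them. Groups did not overlap, with all DdblGata1 libraries below all wild-type ones, for 2 replication genes (Rrm2 and Cdc45) and 3 mitosis genes (Cdk1, Plk1 and Cdc20), against 7.34% of all genes. The reverse held for 1 replication gene (Ccne1) and 0 mitosis genes, against 8.98% of all.

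**Figure D1:**
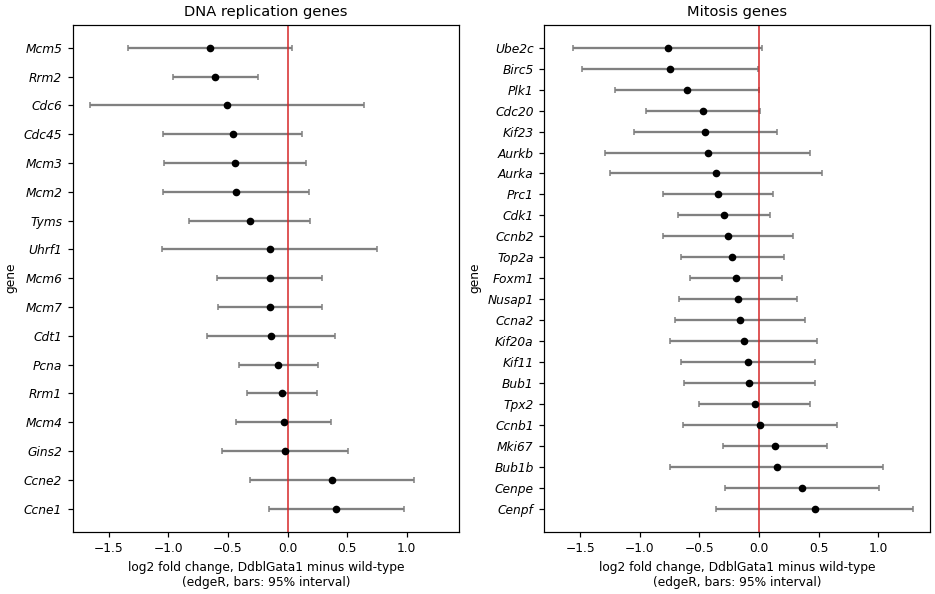
Fitted log2 fold change (DdblGata1 minus wild-type, x axis) of each of the 17 replication and 23 mitosis genes, from edgeR with 3 libraries per group. Points are estimates and bars are 95% confidence intervals; Rrm2, Plk1 and Birc5 have intervals entirely below 0.

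Nucleotide supply separated the 2 subunits of ribonucleotide reductase, the enzyme that makes deoxynucleotides. Rrm2 (ENSMUSG00000020649, GRCm38 chromosome 12, 24708241 to 24714146), the small subunit that is limiting in S phase, was at 25.6, 29.1 and 26.0 CPM in wild-type replicates 1, 3 and 4. It was at 18.9, 16.8 and 17.4 CPM in DdblGata1 replicates 4, 9 and 10. Every DdblGata1 library lay below every wild-type library, and the spread within each group was small beside the gap, with means of 26.9 ± 1.89 and 17.7 ± 1.11 CPM (SD, n = 3 each). The log2 fold change was -0.60 ± 0.16 (SE), with a 95% interval of -0.97 to -0.24. In edgeR its unadjusted p was 0.00468 and its adjusted p 0.384, and in DESeq2 its adjusted p was 0.0426. Rrm2 had the lowest p of the 40 genes and kept an unadjusted p below 0.05 in every one of 17 other settings, in which its log2 fold change was -0.66 to -0.50 and its adjusted p 0.0426 by DESeq2 and 0.181 to 0.899 in the rest.

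Rrm1, the large subunit, was at 65.8, 71.2 and 73.4 CPM in wild-type and 68.5, 69.6 and 65.5 CPM in DdblGata1 libraries. The groups overlapped, and the log2 fold change of -0.05 ± 0.13 had a 95% interval of -0.34 to 0.25. Tyms, the thymidylate synthase that makes the nucleotide particular to DNA, was at 24.1, 16.2 and 17.7 CPM in wild-type and 17.9, 16.0 and 12.7 CPM in DdblGata1 libraries. Wild-type replicate 1 was high and DdblGata1 replicate 10 low, with the other 4 libraries close together, and the log2 fold change was -0.32 ± 0.22 (edgeR adjusted p = 0.609).

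The MCM genes encode the 6 subunits of the replicative helicase loaded onto origins. Of these, Mcm2 to Mcm6 varied more among the DdblGata1 libraries than among the wild-type ones. Mcm5 (ENSMUSG00000005410, GRCm38 chromosome 8, 75109569 to 75128439) was at 32.0, 35.0 and 34.1 CPM in wild-type and 32.6, 18.0 and 13.8 CPM in DdblGata1 libraries. Thus DdblGata1 replicate 4 sat among the wild-type libraries, while replicates 9 and 10 were far below them, and the log2 fold change was -0.65 ± 0.30 (edgeR adjusted p = 0.498). Mcm2 showed the same order, with 35.9, 42.7 and 46.5 CPM in wild-type and 41.8, 31.4 and 19.6 CPM in DdblGata1 libraries, a log2 fold change of -0.43 ± 0.27. Mcm3 was at 44.3, 41.3 and 49.0 CPM and at 46.1, 31.1 and 21.9 CPM, a log2 fold change of -0.44 ± 0.26. In both genes DdblGata1 replicate 10 was the lowest library and DdblGata1 replicate 4 lay within the wild-type range.

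Mcm6 was at 44.6, 46.6 and 48.6 CPM in wild-type and 49.7, 45.2 and 31.1 CPM in DdblGata1 libraries. Here DdblGata1 replicate 4 was the highest library, only replicate 10 lay well below the wild-type range, and the log2 fold change was -0.15 ± 0.19. Mcm4 (-0.03) and Mcm7 (-0.15) completed the ring with overlapping groups. Mcm7 did not share the pattern: its SD was 8.49 CPM in wild-type and 6.49 CPM in DdblGata1 libraries. Its DdblGata1 replicate 10 lay within the wild-type range. Averaged over the 6 subunits, the level on the log2 CPM scale was 5.31, 5.47 and 5.56 in wild-type libraries and 5.47, 5.08 and 4.75 in DdblGata1 ones. Scaled for length, as TPM, Mcm7 was the most abundant subunit with a mean of 36.7 over the 6 libraries and Mcm5 the least abundant with 16.2.

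The loaders that bring the helicase to origins were weakly expressed. Cdc6 was at 8.02, 4.28 and 4.97 CPM in wild-type and 7.19, 3.01 and 1.97 CPM in DdblGata1 libraries. Its range within either group exceeded the difference between them, and the log2 fold change was -0.51 ± 0.50. Cdt1, its partner in loading, was at 12.0, 9.45 and 8.41 CPM in wild-type and 10.5, 7.81 and 8.78 CPM in DdblGata1 libraries, overlapping throughout (-0.14 ± 0.23).

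At the fork, Cdc45, which joins the MCM ring and GINS to form the active helicase, was at 6.80, 7.55 and 6.15 CPM in wild-type and 6.01, 4.30 and 4.58 CPM in DdblGata1 libraries. The groups did not overlap, but DdblGata1 replicate 4 and wild-type replicate 4 were nearly level, and the log2 fold change of -0.46 ± 0.25 had an adjusted edgeR p of 0.541. Pcna, the sliding clamp of DNA polymerase, was the most abundant of the 40 genes per length, with a mean of 126 TPM. It was at 73.6, 74.0 and 70.2 CPM in wild-type and 60.5, 77.9 and 68.1 CPM in DdblGata1 libraries. Its highest and lowest libraries were both DdblGata1, and the log2 fold change was -0.08 ± 0.14 (95% interval -0.41 to 0.25). Gins2, a GINS subunit, overlapped as well (-0.02 ± 0.23).

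Cyclin E, the partner of CDK2 at the entry to S phase, was the exception in sign. Ccne1 was at 5.95, 5.48 and 5.89 CPM in wild-type and 9.53, 6.98 and 6.49 CPM in DdblGata1 libraries. All DdblGata1 libraries lay above all wild-type ones, and the log2 fold change was 0.41 ± 0.25 (edgeR adjusted p = 0.564). Ccne2 was at 5.09, 5.69 and 4.16 CPM in wild-type and 8.32, 4.63 and 6.39 CPM in DdblGata1 libraries, with overlapping groups (0.37 ± 0.30). Uhrf1, which recruits the maintenance DNA methyltransferase behind the fork, was at 21.3, 34.6 and 27.3 CPM in wild-type and 41.9, 19.1 and 14.0 CPM in DdblGata1 libraries. The DdblGata1 libraries thus held both its highest and its lowest values, and the log2 fold change was -0.15 ± 0.39. The values of these 3 genes depended on how transcripts were counted, as described further down.

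**Figure D2:**
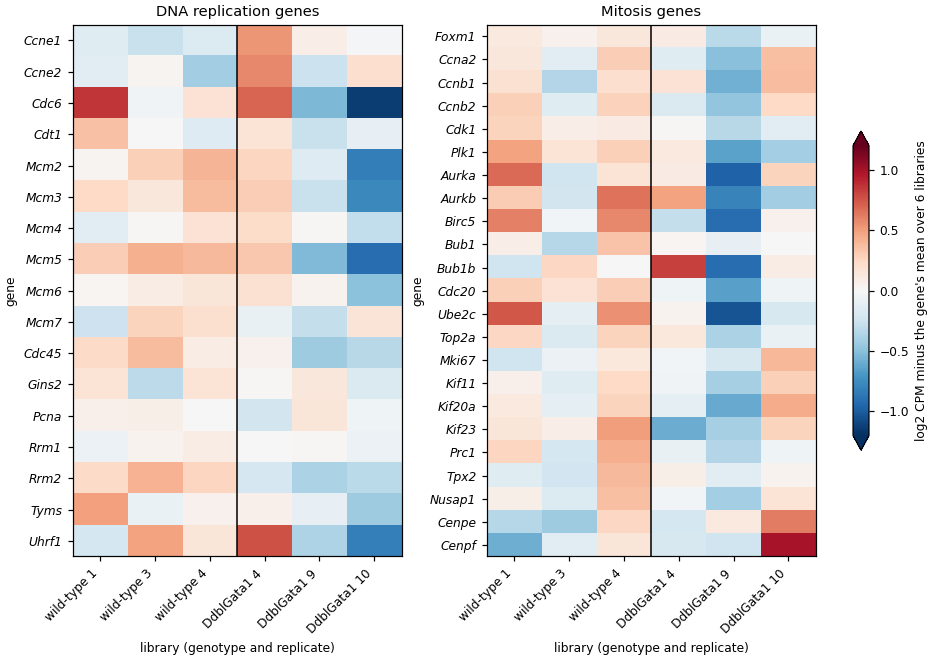
Heatmap of each of the 40 genes (rows, by phase and role) in each of the 6 libraries (columns), coloured by the deviation of log2 CPM from the gene's mean over the 6 libraries. DdblGata1 replicate 10 was the lowest library for 9 of 17 replication genes and the highest for 7 of 23 mitosis genes, and DdblGata1 replicate 9 was the lowest for 17 of 23 mitosis genes.

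Among the mitosis genes, the regulators that drive entry into division came first. Foxm1, the transcription factor of many G2 and mitosis genes, was at 26.1, 24.9 and 26.5 CPM in wild-type and 25.8, 19.3 and 22.7 CPM in DdblGata1 libraries. DdblGata1 replicate 4 lay within the wild-type range and replicates 9 and 10 below it, and the log2 fold change was -0.19 ± 0.17. Cdk1, the kinase that triggers mitosis, was at 26.3, 23.1 and 23.5 CPM in wild-type and 22.1, 17.4 and 20.1 CPM in DdblGata1 libraries. The groups did not overlap, with a gap narrower than the spread within either group, and the log2 fold change was -0.29 ± 0.17 (edgeR adjusted p = 0.553).

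The cyclins that activate Cdk1 did not separate the groups. Ccna2 was at 42.3, 35.1 and 47.3 CPM in wild-type and 34.8, 27.1 and 49.6 CPM in DdblGata1 libraries (-0.16 ± 0.24). Ccnb1 was at 16.6, 11.4 and 16.7 CPM in wild-type and 16.5, 9.73 and 18.8 CPM in DdblGata1 libraries (0.01 ± 0.28). In both cyclins DdblGata1 replicate 9 was the lowest library and DdblGata1 replicate 10 the highest, so the range within DdblGata1 enclosed the wild-type range. Ccnb2 had a log2 fold change of -0.26 ± 0.24.

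Plk1 and Birc5 were the mitosis genes with an unadjusted p below 0.05. Plk1 (ENSMUSG00000030867, GRCm38 chromosome 7, 122159439 to 122169873), a kinase of centrosome maturation and spindle assembly, was at 11.6, 9.28 and 10.1 CPM in wild-type and 8.95, 5.26 and 6.20 CPM in DdblGata1 libraries. The groups did not overlap, with DdblGata1 replicate 4 close to the lowest wild-type library, and the log2 fold change was -0.60 ± 0.26 (edgeR adjusted p = 0.486). Birc5 (ENSMUSG00000017716, GRCm38 chromosome 11, 117849251 to 117855743), the survivin subunit of the chromosomal passenger complex, was at 10.4, 6.69 and 10.2 CPM in wild-type and 5.61, 3.61 and 7.10 CPM in DdblGata1 libraries. Wild-type replicate 3 was below DdblGata1 replicate 10, so the groups overlapped, and the log2 fold change was -0.75 ± 0.32 (edgeR adjusted p = 0.483). Without wild-type replicate 1, the library with the most epithelial RNA, neither kept an unadjusted edgeR p below 0.05 (Plk1 -0.53 and Birc5 -0.66, both with an adjusted p of 0.659). The count of mitosis genes at that threshold was likewise 0 without wild-type replicate 4 or without DdblGata1 replicate 9, and 4 without DdblGata1 replicate 4.

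Aurkb, the kinase of the same passenger complex, was at 12.3, 8.52 and 15.7 CPM in wild-type and 14.0, 5.69 and 7.43 CPM in DdblGata1 libraries, with wide spread in both groups (-0.43 ± 0.37). Aurka, the centrosomal Aurora kinase, had a log2 fold change of -0.36 ± 0.39.

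The spindle checkpoint restrains the anaphase-promoting ubiquitin ligase until chromosomes are attached. Cdc20, an activator of that ligase, was at 20.5, 19.0 and 20.6 CPM in wild-type and 16.3, 10.7 and 16.3 CPM in DdblGata1 libraries. The wild-type libraries were tight, all DdblGata1 libraries lay below them, and the log2 fold change was -0.47 ± 0.21 (edgeR adjusted p = 0.486). Ube2c, the ubiquitin-conjugating enzyme of the ligase, had the lowest fold change of the 40 genes, -0.77 ± 0.34 (edgeR adjusted p = 0.489). It was at 14.6, 7.97 and 12.7 CPM in wild-type and 8.95, 4.20 and 7.59 CPM in DdblGata1 libraries, where wild-type replicate 3 fell between DdblGata1 replicates 4 and 10. Bub1, a checkpoint kinase, was at 9.46, 7.04 and 11.3 CPM in wild-type and 9.09, 8.34 and 8.88 CPM in DdblGata1 libraries, with every DdblGata1 library inside the wild-type range (-0.08 ± 0.24). Bub1b, its relative in the checkpoint complex, ranged from 9.07 to 30.3 CPM within DdblGata1 (0.15 ± 0.39).

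The commonly used proliferation markers showed no separation. Top2a, the topoisomerase that untangles sister chromatids, was at 89.8, 67.2 and 91.0 CPM in wild-type and 82.8, 58.1 and 71.6 CPM in DdblGata1 libraries (-0.22 ± 0.19). Mki67, which coats mitotic chromosomes, was at 66.7, 75.2 and 86.1 CPM in wild-type and 77.0, 69.0 and 104 CPM in DdblGata1 libraries (0.13 ± 0.19, 95% interval -0.30 to 0.57). The 2 markers ordered the libraries differently: wild-type replicate 1 was among the highest for Top2a and the lowest for Mki67.

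Among spindle and cytokinesis genes, Kif11, the motor that pushes spindle poles apart, was at 10.0, 8.66 and 11.4 CPM in wild-type and 9.28, 7.25 and 11.7 CPM in DdblGata1 libraries (-0.09 ± 0.25). Kif23, a motor of the central spindle, was at 17.8, 17.0 and 22.8 CPM in wild-type and 10.6, 12.2 and 19.4 CPM in DdblGata1 libraries (-0.45 ± 0.26). DdblGata1 replicate 10 lay within the wild-type range for Kif23 and above it for Kif11. Prc1 and Kif20a of the central spindle and Tpx2 and Nusap1 of the spindle microtubules all overlapped, with log2 fold changes of -0.35, -0.13, -0.04 and -0.18.

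The members placed as kinetochore genes, Cenpe and Cenpf, had positive fold changes. Cenpe, a kinetochore motor, was at 10.7, 10.1 and 16.1 CPM in wild-type and 11.7, 14.7 and 20.9 CPM in DdblGata1 libraries (0.36 ± 0.28). Cenpf, a large kinetochore protein of G2 and mitosis, ranged from 16.0 to 26.6 CPM in wild-type and from 20.4 to 47.8 CPM in DdblGata1 libraries (0.47 ± 0.36), with the highest value in replicate 10. The groups overlapped in both genes.

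The 2 phases differed in which library stood out. The mean log2 CPM of the 17 replication genes was 4.44, 4.43 and 4.43 in wild-type libraries and 4.53, 4.14 and 3.94 in DdblGata1 ones. For the 23 mitosis genes it was 4.30, 4.04 and 4.45 in wild-type libraries and 4.15, 3.66 and 4.29 in DdblGata1 ones. Wild-type libraries were nearly equal in replication level, while DdblGata1 libraries spread above and below them, so the groups overlapped in both phases. The difference between group means, -0.23 in each phase, was smaller than the SD over DdblGata1 libraries, 0.30 for replication and 0.33 for mitosis. The replication level minus the mitosis level was 0.14, 0.39 and -0.01 in wild-type libraries and 0.38, 0.47 and -0.34 in DdblGata1 ones. DdblGata1 replicate 10 was thus low in replication genes and near the wild-type libraries in mitosis genes, and DdblGata1 replicate 9 was low in both.

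**Figure D3:**
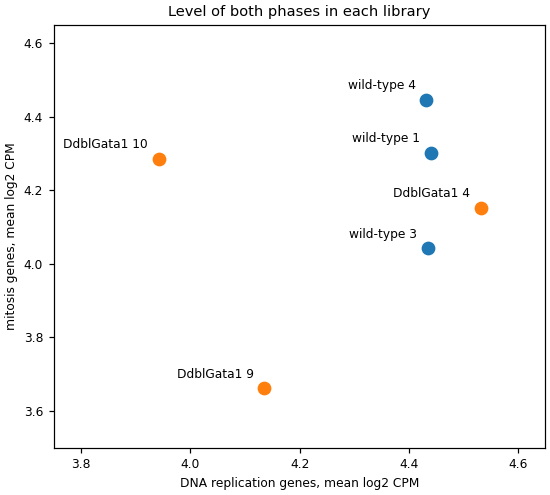
Mean log2 CPM of the 17 replication genes (x axis) against that of the 23 mitosis genes (y axis), 1 point per library. Wild-type points line up between 4.43 and 4.44 on the x axis, and DdblGata1 points spread from 3.94 to 4.53.

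Counting members per library gave the same order. DdblGata1 replicate 10 was the lowest library for 9 of 17 replication genes (Cdc6, Mcm2 to Mcm6, Rrm1, Tyms and Uhrf1) and the highest for 0 of them. The same library was the highest for 7 of 23 mitosis genes (Ccna2, Ccnb1, Mki67, Kif11, Kif20a, Cenpe and Cenpf) and the lowest for 0. DdblGata1 replicate 9 was the lowest for 17 mitosis genes, and wild-type replicate 4 the highest for 9. In plain sums of transcript counts, described below, DdblGata1 replicate 10 was lowest for 12 of 17 replication genes. There DdblGata1 replicate 9 was lowest for 19 of 23 mitosis genes. How often each library was lowest or highest over all genes was not counted. Without DdblGata1 replicate 4, 7 replication genes had an unadjusted edgeR p below 0.05 (Cdc6, Mcm2, Mcm3, Mcm5, Cdc45, Rrm2 and Uhrf1), where 17.8% of all genes did, and 0 were called after adjustment.

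Genes of a phase varied together across the 6 libraries. In the deposited counts the mitosis genes did so more than the replication genes. The median Pearson correlation of log2 CPM was 0.607 over the 253 pairs of mitosis genes and 0.315 over the 136 pairs of replication genes. Over the 391 pairs between phases it was 0.096. In plain sums of transcript counts the medians were 0.744 within mitosis, 0.672 within replication and 0.172 between phases, so the phases differed less. In the deposited counts all pairs among 9191 genes of the same CPM range had a median of 0.002. The MCM subunits, the only smaller group examined, had a median of 0.826 over 15 pairs. These values describe 6 libraries that the genes share, genotype differences included. Cenpe and Cenpf had low medians with the other mitosis genes, 0.17 and 0.129, and Mki67 followed with 0.289. Some replication genes had lower medians with their own phase: Pcna -0.156, Ccne2 -0.084, the MCM subunit Mcm7 -0.023, Ccne1 0.01 and Gins2 0.107. Ccne2, Cdt1, Mcm7 and Plk1 had a higher median with the other phase than with their own.

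The authors' gene values depended on the transcript makeup. Most of them equalled TPM summed per gene and multiplied back by the gene's mean transcript length, which raises a gene where short transcripts take a larger share. Recounted as plain sums of estimated counts, all 17 replication genes had a negative log2 fold change and 19 of 23 mitosis genes did, against 52.2% of all genes. The median was -0.29 for replication and -0.25 for mitosis. In that count 2 replication genes (Cdc45 and Rrm2) and 3 mitosis genes (Plk1, Birc5 and Ube2c) had an unadjusted edgeR p below 0.05, against 12.6% of all genes, and 0 were called after adjustment. Groups did not overlap, with DdblGata1 lower, for 4 replication genes and 4 mitosis genes, against 9.2% of all genes.

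The genes that moved most were those with short annotated transcripts. Ccne1 went from 0.41 to -0.07, with plain sums of 6.62, 6.59 and 6.98 CPM in wild-type and 6.46, 7.75 and 4.91 CPM in DdblGata1 libraries. Transcripts under 700 bases held 12.8%, 5.82% and 5.64% of its TPM in wild-type libraries and 51.8%, 15.5% and 48.9% in DdblGata1 ones. A single one of 608 bases, Ccne1-204, named after its values were seen, held 49.8% in DdblGata1 replicate 4, 42.4% in replicate 10 and 0 elsewhere. The higher Ccne1 of the deposited table was therefore not present in the plain count.

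Ccne2 went from 0.37 to -0.29 and Bub1b from 0.15 to -0.27. Short transcripts held 54.1%, 19.6% and 48.0% of Ccne2 TPM in the DdblGata1 libraries and at most 11.0% in the wild-type ones. For Bub1b they held 20.3%, 45.2% and 9.28% in wild-type libraries and 59.4%, 20.4% and 34.9% in DdblGata1 ones, with overlapping groups. Uhrf1 went from -0.15 to -0.69, and its plain sums were 30.7, 33.4 and 31.7 CPM in wild-type and 29.6, 16.9 and 12.5 CPM in DdblGata1 libraries. The groups then no longer overlapped, the wild-type libraries became tight, and the adjusted edgeR p was 0.407. Kif23 moved in the opposite direction, from -0.45 to 0.02.

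Rrm2 was hardly touched by this choice, with plain sums of 26.3, 29.3 and 25.6 CPM in wild-type and 19.0, 17.0 and 17.6 CPM in DdblGata1 libraries. Its log2 fold change was -0.60 in either count, with an adjusted edgeR p of 0.299 in the plain one. The mean level of the replication genes in plain counts was 4.46, 4.52 and 4.48 in wild-type libraries and 4.40, 4.14 and 3.86 in DdblGata1 ones, without overlap. That of the mitosis genes was 4.30, 4.06 and 4.45 in wild-type libraries and 4.13, 3.67 and 4.27 in DdblGata1 ones, with overlap. Whether the short transcripts were real or an assignment of shared reads was not tested.

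**Figure D4:**
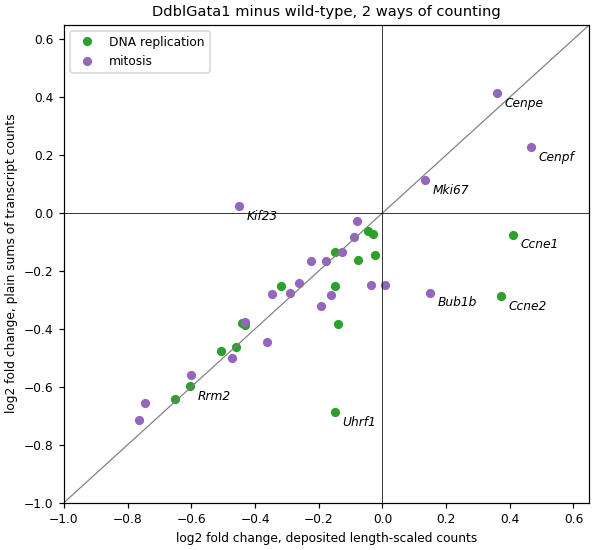
Log2 fold change (DdblGata1 minus wild-type) of the 40 genes in the deposited length-scaled counts (x axis) against plain sums of estimated transcript counts (y axis). Ccne1, Ccne2, Uhrf1 and Bub1b lie below the diagonal and Kif23 above it, and Rrm2 lies on it at -0.60.

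Mitosis genes also differed by transcript length. Over the 23 genes the Pearson correlation between log2 mean transcript length and the deviation from the gene's mean was -0.83, -0.27 and -0.45 in wild-type libraries and -0.11, 0.72 and 0.61 in DdblGata1 ones. Over all 15232 genes with transcripts it was -0.23, -0.02 and 0.05 in wild-type libraries and 0.09, 0.05 and 0.13 in DdblGata1 ones. The sign in wild-type replicate 1 was the same over all genes, where the correlation was weaker.

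The 9 mitosis genes with a mean transcript length under 2000 bases (Ccnb1, Ccnb2, Cdk1, Aurka, Aurkb, Birc5, Cdc20, Ube2c and Kif23) had median deviations of 0.29, -0.12 and 0.29 in wild-type libraries and 0.01, -0.65 and 0.05 in DdblGata1 ones. The 3 above 5000 bases (Mki67, Cenpe and Cenpf) had -0.35, -0.13 and 0.15 in wild-type libraries and -0.19, -0.19 and 0.62 in DdblGata1 ones. All genes under 2000 bases had medians of 0.166, 0.004 and -0.032 in wild-type libraries and -0.037, -0.024 and -0.084 in DdblGata1 ones. All genes above 5000 bases had -0.261, 0.0 and 0.001 in wild-type libraries and 0.062, 0.072 and 0.132 in DdblGata1 ones. Plain sums gave correlations of -0.88, -0.48 and -0.37 in wild-type libraries and 0.19, 0.67 and 0.62 in DdblGata1 ones. The sign was thus the same in 5 of the 6 libraries and differed in DdblGata1 replicate 4. The 23 genes are few and share their libraries, and the part of transcript length in the fold changes above was not tested. Mean fragment length, 364, 329 and 364 bases in wild-type libraries and 363, 341 and 326 bases in DdblGata1 ones. The 2 libraries with the strongest positive correlations, DdblGata1 replicates 9 and 10, had shorter fragments than DdblGata1 replicate 4 and wild-type replicates 1 and 4, and wild-type replicate 3 had short fragments with a negative correlation. The part of fragment length was not tested.

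**Figure D5:**
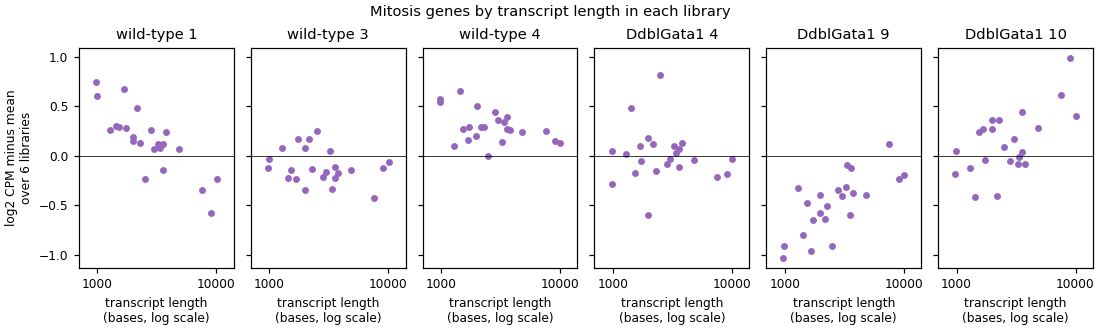
Deviation of each of the 23 mitosis genes from its mean over the 6 libraries (log2 CPM, y axis) against its mean transcript length (bases, log axis), 1 panel per library. The slope is downward in wild-type replicate 1 (r = -0.83) and upward in DdblGata1 replicates 9 (r = 0.72) and 10 (r = 0.61).

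Genes overlapping on the opposite strand could share reads, since the library kit keeps strand but no source used here gives the counting setting. Exons of Cdc45 overlap Ufd1, those of Cdc20 overlap Elovl1, those of Ccna2 overlap Exosc9 and those of Ccne2 overlap Ints8. The same holds for Mcm7 with Cops6 and Ap4m1, Gins2 with Gse1, Kif20a with Cdc23, Nusap1 with Oip5 and Prc1 with Rccd1. Rrm2, Plk1 and Birc5 had no such overlap.

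The rest of the pathway was read from lists of related genes, in which edgeR called 0 genes after adjustment. Among 59 other replication genes 2 lay lower and 1 lay higher in DdblGata1 at an unadjusted p below 0.05, against 4.23% and 6.03% of all genes, with a median log2 fold change of -0.10. Tk1, the salvage kinase for thymidine, was at 23.2, 14.3 and 14.9 CPM in wild-type and 14.2, 9.56 and 8.88 CPM in DdblGata1 libraries (-0.68 ± 0.27), and its groups were separated by a small gap. Fen1, the flap nuclease of lagging strand synthesis, was at -0.60 ± 0.25, and Casp8ap2, needed for histone expression in S phase, at 0.41 ± 0.18.

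Among 79 other mitosis genes 4 were lower and 1 was higher, also beside 4.23% and 6.03% of all genes, with a median of -0.13. Arhgap19, which acts in cell division, was at 4.85, 5.48 and 10.5 CPM in wild-type and 1.03, 0.993 and 1.81 CPM in DdblGata1 libraries. Its groups were far apart, with a log2 fold change of -2.44 ± 0.43 and an adjusted p of 0.384 in edgeR and 0.000115 in DESeq2. Kif15, a spindle motor that backs up Kif11, was at 9.88, 6.79 and 6.61 CPM in wild-type and 12.8, 12.0 and 12.3 CPM in DdblGata1 libraries (0.67 ± 0.23), without overlap. Kif22, a chromosome-arm motor, was at -0.53 ± 0.19.

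Upstream of S phase, 3 of 14 G1 genes lay lower and 1 higher at that threshold, where 4.23% and 6.03% of all genes did, with a median of -0.16. Mycn was at 6.34, 5.72 and 6.90 CPM in wild-type and 4.58, 3.28 and 3.03 CPM in DdblGata1 libraries (-0.80 ± 0.28). Its relative Myc, at 25.9, 24.0 and 23.9 CPM in wild-type and 26.3, 41.2 and 42.2 CPM in DdblGata1 libraries (0.57 ± 0.21), lay in the opposite direction. Fzr1, which activates the anaphase-promoting ligase in G1, was at -0.40 ± 0.16.

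D-type cyclins, which start the phosphorylation of the retinoblastoma protein, varied by library. Ccnd1 was at 47.3, 62.7 and 88.9 CPM in wild-type and 117, 33.9 and 22.5 CPM in DdblGata1 libraries (-0.20 ± 0.56). Ccnd2 was at 227, 249 and 231 CPM in wild-type and 234, 178 and 138 CPM in DdblGata1 libraries (-0.36 ± 0.20). Both had DdblGata1 replicate 10 lowest and DdblGata1 replicate 4 within or above the wild-type range, the order also seen in Mcm2, Mcm3 and Mcm5.

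Of 23 E2F, pocket protein and DREAM genes 1 was lower and 1 higher (4.23% and 6.03% of all genes), with a median of -0.09. E2f2 was at 5.95, 5.48 and 13.5 CPM in wild-type and 4.29, 2.98 and 1.71 CPM in DdblGata1 libraries, without overlap (-1.47 ± 0.47, edgeR adjusted p = 0.433). Rbl2, the pocket protein p130 of the DREAM repressor, was at 40.7, 43.3 and 50.4 CPM in wild-type and 53.3, 64.8 and 61.9 CPM in DdblGata1 libraries, also without overlap (0.42 ± 0.15). Mybl2, which encodes B-MYB, was at -0.70 ± 0.33 with overlapping groups.

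Of 25 inhibitors and p53 targets 24 were in the table, 0 of them lower and 2 higher at the unadjusted threshold (4.23% and 6.03% of all genes), with a median of 0.08. Cdkn1c, the CDK inhibitor p57, was at 127, 220 and 149 CPM in wild-type and 304, 266 and 248 CPM in DdblGata1 libraries. All DdblGata1 libraries lay above all wild-type ones, and the log2 fold change was 0.72 ± 0.22 (edgeR adjusted p = 0.416). Cdkn1a, the p53 target p21, was at 0.03 ± 0.22 and Cdkn1b, the inhibitor p27, at 0.09 ± 0.17, both with overlapping groups. Btg2, an antiproliferative p53 target, was at 0.68 ± 0.27 with overlapping groups, and Eda2r, a p53-induced receptor, at 0.55 ± 0.26 (edgeR adjusted p = 0.502). DESeq2 called 1 gene of these lists after adjustment, Arhgap19.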

How the data were processed

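Total RNA of sorted fibroblasts was measured by stranded RNA-seq in 6 libraries, grouped by the genotype in the labels. The submitters' processing notes name bcl2fastq 2.2, kallisto, R 4.2.2, DESeq2, mm10 and GRCm38.p6, without the step that each served. The gene table deposited by the authors has expected counts (estimated counts, whole numbers) for genes with at least 10 counts in at least 3 libraries. Of its values 99.6% equalled length-scaled TPM and 26.2% plain sums (within 1% plus 1 count). The deposited transcript files give estimated counts, TPM and, as other values, lengths and effective lengths in bases of 115270 transcripts. The deposited sample sheet gives the authors' size factor, a ratio around 1, and 2 surrogate variables, each a score, used as covariates in an alternative.

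Counts were fitted over all 15238 genes with edgeR 4.0.16 in R 4.3.3 (TMM, filterByExpr, robust quasi-likelihood, Benjamini-Hochberg at 0.05, no covariate). CPM are TMM-scaled. Levels used log2 CPM with a prior count of 2. The test was tested on simulated data of known fold changes. Depths were 28110454 to 31210800 estimated counts, and for weakly expressed genes counting error is part of the spread between libraries. Although the rule for the members uses no measured value, members and lists were chosen with earlier results of these data known. By rule, values per library were given for 22 set genes and for the 3 others of smallest p in each phase, and up to 3 genes of smallest p per related list plus Cdkn1a, Cdkn1b, Cdkn1c, Ccnd1 and Ccnd2. Values given per library for Rrm1, and those of Bub1b, Cenpf and the spread of Mcm7, were added after values were seen. Alternatives were DESeq2 1.42.0, limma 3.58.1 (voom, and log2 TPM plus 1 or 0.1), RLE, upper-quartile and total scaling, no filter, a mean CPM of at least 1, plain sums, the surrogate variables and leaving out each library. Transcripts and exon overlaps came from the annotation of the same build, and promoters from RefSeq.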

Additional observations from a re-analysis of the deposited data

How the results depend on the processing

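No replication or mitosis gene was called after adjustment under any of the 17 other settings, except Rrm2 under DESeq2 (adjusted p = 0.0426), which brought the replication genes called to 1 and all genes called to 214. Leaving out each library in turn gave 0 to 1 genes called in all. The replication genes at an unadjusted p below 0.05, 1 in edgeR, were 2 under DESeq2, voom, upper-quartile scaling and plain sums, 3 with the surrogate variables and 1 to 7 on leaving out a library. The mitosis genes there, 2 in edgeR, were 4 under DESeq2, voom and upper-quartile scaling, 1 under library totals, log2(TPM + 0.1) and the surrogate variables, 0 under log2(TPM + 1) and 0 to 4 on leaving out a library. Of all genes, 10.3% had an unadjusted p below 0.05 in edgeR, 12.0% under DESeq2, 10.2% under voom and 10.5% under upper-quartile scaling. The share was 12.6% under plain sums, 12.2% with the surrogate variables, 10.2% under library totals and 10.7% under either TPM setting. Leaving out a library gave 5.37% to 17.8%. Medians kept their sign, from -0.29 to -0.09 (replication) and from -0.32 to -0.08 (mitosis). The replication level difference of -0.23 was -0.52 as a median over members and -0.40 to -0.10 on leaving out a library, and the mitosis one -0.36 to -0.04. The median of all genes was 0.06 under log2(TPM + 1), 0.08 under log2(TPM + 0.1) and -0.06 under upper-quartile scaling.

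Of the 40 genes 22 kept the sign of their log2 fold change in all settings and 18 did not. Plain sums turned Ccne1 (-0.075), Ccne2 (-0.29), Ccnb1 (-0.25), Bub1b (-0.27) and Kif23 (0.023). log2(TPM + 1) and log2(TPM + 0.1) turned Mcm4 (0.040 and 0.041), Gins2 (0.066 and 0.070), Rrm1 (0.036 and 0.036), Bub1 (0.020 and 0.028) and Tpx2 (0.064 and 0.069). The median of all genes under these settings was itself positive, 0.062 and 0.076. Surrogate variables turned Mcm4 (0.038), Gins2 (0.12) and Bub1 (0.024), voom Ccnb1 (-0.032) and Bub1b (-0.012), upper-quartile scaling (-0.049) and library totals (-0.0004) Ccnb1. Leaving out a library turned Mcm4 (-0.16 to 0.081), Mcm6 (-0.29 to 0.012), Gins2 (-0.17 to 0.053), Pcna (-0.19 to 0.0085), Uhrf1 (-0.74 to 0.12), Ccna2 (-0.44 to 0.0032), Ccnb1 (-0.20 to 0.23), Bub1 (-0.24 to 0.089), Bub1b (-0.34 to 0.47), Mki67 (-0.072 to 0.23), Kif11 (-0.29 to 0.049), Kif20a (-0.45 to 0.075), Tpx2 (-0.15 to 0.18) and Cenpf (-0.073 to 0.66). Ccnb1, turned by plain sums, had 0.0% of its TPM in transcripts under 700 bases in every library. The cause of these changes of sign was not tested. No paired analysis was possible because the labels give no pairing of wild-type with DdblGata1 libraries. The lowest estimated count of any of the 40 genes in a library was 61 (Cdc6), and the effect of depth was not tested.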
